A study of Mus musculus with 10 samples.

Results

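The genes described here are 37 mouse genes of the heat shock response and the unfolded protein response, out of 54456 genes in a table of normalized RNA-seq counts. They were chosen by symbol, and all 37 were found and passed the filter on low values. They form 3 arms: 14 genes of the cytosolic and mitochondrial heat shock machinery, 14 genes of the endoplasmic reticulum, and 9 genes of the ATF4 and amino acid response.

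When unfolded proteins accumulate in the cytosol, the factor HSF1 (encoded by Hsf1) binds heat shock elements and raises chaperones of the HSP70, HSP90, HSP110 and J-domain families. In the endoplasmic reticulum, 3 sensors (IRE1, ATF6 and PERK, encoded by Ern1, Atf6 and Eif2ak3) respond to unfolded proteins, and XBP1 and cleaved ATF6 then raise chaperones, disulfide isomerases and degradation factors. PERK and other kinases that act on the translation factor eIF2 slow protein synthesis and favour ATF4, which raises genes of amino acid supply and the CHOP and TRIB3 regulators. Mouse embryonic stem cells divide fast and are known for high chaperone levels without added stress.

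The study wrote parts of human TAF1, the gene carrying the SVA retrotransposon insertion of X-linked dystonia parkinsonism, into the mouse Taf1 gene. The 7 libraries used here are stranded total RNA of C57BL/6J embryonic stem cells: 1 of the wild-type line MK6 and 2 of each of 3 converted lines. Of the 10 samples of the series, the unconverted XDP stem cell line and the 2 striatal samples were not analysed here. All 3 converted lines share a loxP site in Taf1 intron 24, exposure to the Cas9 plasmids pSpCas9 and pSpCas9GFP, the LPSwapinRed_pUC19 element at Taf1, a humanized and in part mousified Taf1 segment, and conversion with the Cre plasmid pCAGiCre. Line conv-dSVA_F has the allele marked SVAdel, conv-dSVA_D the allele marked dSVA2, and conv-dSVA_F&D both. All cells grew on gelatin with serum, LIF, CHIR99021 (an inhibitor of GSK3) and PD0325901 (an inhibitor of MEK). Each genotype is represented by a single named line, with no clone given, and effects of the genotype and of that line cannot be told apart. Whether replicates were separate cultures is not stated, and p-values then reflect only how these samples vary, which may be technical.

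The libraries held 16588467 to 26562418 reads assigned to genes. Taf1, the edited gene, had 2898 normalized counts in the wild type and 362 to 1116 in the converted libraries. All 8 stem cell markers were present in every library. Summed markers of fibroblast or feeder cells were 267 in the wild type and 39.4 to 87.8 in the converted libraries, with Lum at 0 throughout. Summed trophoblast markers were 1868 in the wild type, 2420 to 5350 for conv-dSVA_F, 1084 to 1191 for conv-dSVA_D and 1800 to 2533 for conv-dSVA_F&D. Summed markers of 2-cell-like cells were 2036, 484 to 842, 69.1 to 80.8 and 394 to 593 in the same order, with Duxf3 at 0 throughout. Primitive endoderm markers summed to 2375 in the wild type and 2439 to 4687 in the converted libraries, and neural markers to 1710 and 1141 to 2246. The part of these differences in the results was not tested, and in bulk samples fewer cells of a type and less RNA per cell cannot be told apart. Some sums were carried by few genes. Lama1 (929) and Col4a1 (1333) made up most of the primitive endoderm sum in the wild type. Krt8 (1765) and Krt18 (2310) made up most of the trophoblast sum in conv-dSVA_F replicate 1.

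Promoter sequences are shown first, because the elements in them are the known sites of the factors of the 3 arms. RefSeq promoters of build GRCm38.p6, 250 bases before to 50 after a start site, were at hand for 31 of the 37 genes. Those of Hsf1, Hspa8, Hspa9, Hsp90aa1, Hsp90ab1 and Atf6 were not used here. Both strands were searched for fixed letters, and a match is a description of these letters and no proof of a bound site. The ER stress element ERSE was searched as CCAAT and CCACG with 9 bases between them. It was found in 5 of 13 endoplasmic reticulum genes with a promoter at hand and in 0.119% of all 32851 promoters. Here and below a gene was counted if any of its promoters matched. Shares of all are per single promoter, so the units are unlike. ERSE and ERSE-II share the letters CCACG. The following lines are read 5′ to 3′ on the strand of the element, with the element in capitals. They are shown because these 5 genes, which carry the same element, did not move as 1 group in the data below. The Hsp90b1 promoter held a further ERSE, 194 bases before the start site and on the opposite strand to the one shown. The Hspa5 line is chr2:34772020-34772048 on the + strand, the Hsp90b1 line chr10:86705513-86705571 on the + strand, the Calr line chr8:84847055-84847113 on the + strand, the Pdia6 line chr12:17266471-17266529 on the + strand and the Dnajc3 line chr14:118937807-118937865 on the + strand.
Hspa5: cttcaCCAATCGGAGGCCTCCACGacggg
Hsp90b1: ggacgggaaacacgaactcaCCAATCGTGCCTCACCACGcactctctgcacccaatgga
Calr: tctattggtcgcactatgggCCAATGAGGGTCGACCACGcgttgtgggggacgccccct
Pdia6: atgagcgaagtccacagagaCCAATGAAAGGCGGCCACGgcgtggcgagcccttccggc
Dnajc3: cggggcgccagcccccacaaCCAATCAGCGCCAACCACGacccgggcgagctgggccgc

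Herpud1 had another arrangement. Its promoter held an ERSE-II (ATTGG and CCACG with 1 base between them, in 0.0365% of all promoters) 42 bases before the start site. On the opposite strand it held a CARE (TGATGNAA, the element bound by ATF4 and its partners, in 3.97% of all promoters) 105 bases before it. The 150 bases before the start site, chr8:94386279-94386428 on the + strand, are shown with both elements in capitals, since Herpud1 had the largest fall among the genes that passed the test below. The CARE reads TTGCATCA on this strand.
Herpud1: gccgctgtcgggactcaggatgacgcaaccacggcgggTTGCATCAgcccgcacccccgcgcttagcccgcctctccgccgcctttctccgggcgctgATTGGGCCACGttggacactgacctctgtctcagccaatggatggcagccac

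A CARE was further found in 4 of 9 genes of the ATF4 arm (Atf3, Trib3, Chac1 and Asns). A heat shock element was searched as 3 alternating GAA and TTC units with 2 bases between them. It was found in 3 of 9 heat shock genes with a promoter at hand (Hsph1, Hspd1 and Hspe1) and in 0.603% of all promoters. The UPRE, TGACGTGG, was in no promoter of the 31 genes and in 0.676% of all promoters. Hspd1 and Hspe1, which encode the mitochondrial chaperonin HSP60 and its co-chaperonin HSP10, lie head to head and share 1 run of units, in which 2 matches overlap. It is shown for the + strand, chr1:55088053-55088082, beside the CARE lines of Atf3 (chr1:191183416-191183463 on the + strand) and Chac1 (chr2:119351029-119351076 on the - strand), with the units or the CARE in capitals.
Hspe1: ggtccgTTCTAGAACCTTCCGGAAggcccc
Atf3: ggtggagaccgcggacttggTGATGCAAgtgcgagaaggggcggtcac
Chac1: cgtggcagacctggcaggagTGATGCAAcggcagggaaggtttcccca

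The 37 genes took 1.71% to 1.91% of the normalized counts of a library. Per kilobase of exon, the highest levels in the wild type were those of Hsp90ab1 (21501 normalized counts per kb), Hspa8 (19988) and Hsp90aa1 (17058), the constitutive HSP90 and HSP70 chaperones of the cytosol and the inducible HSP90. Hspe1 (11793) and Asns (10473), the asparagine synthetase, came next. The lowest were the stress-inducible HSP70 gene Hspa1a (6.99), the sensor Ern1 (12.9) and the stress factor Atf3 (14.2). Known stress-inducible genes stood at both ends, with Hsp90aa1 near the top and Hspa1a at the bottom. Over the 7 libraries, the median log2 range of a gene was 0.64 for the 37 genes and 0.92 for all genes tested. Among genes with a mean of at least 100 normalized counts, where 35 of the 37 fall, it was 0.63 against 0.69. A log2 range of at least 1 was seen in 9 of the 37: Hspa1a, Hspa1b, Bag3, Herpud1, Eif2ak3, Ern1, Atf3, Chac1 and Phgdh.

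**Figure D1:**
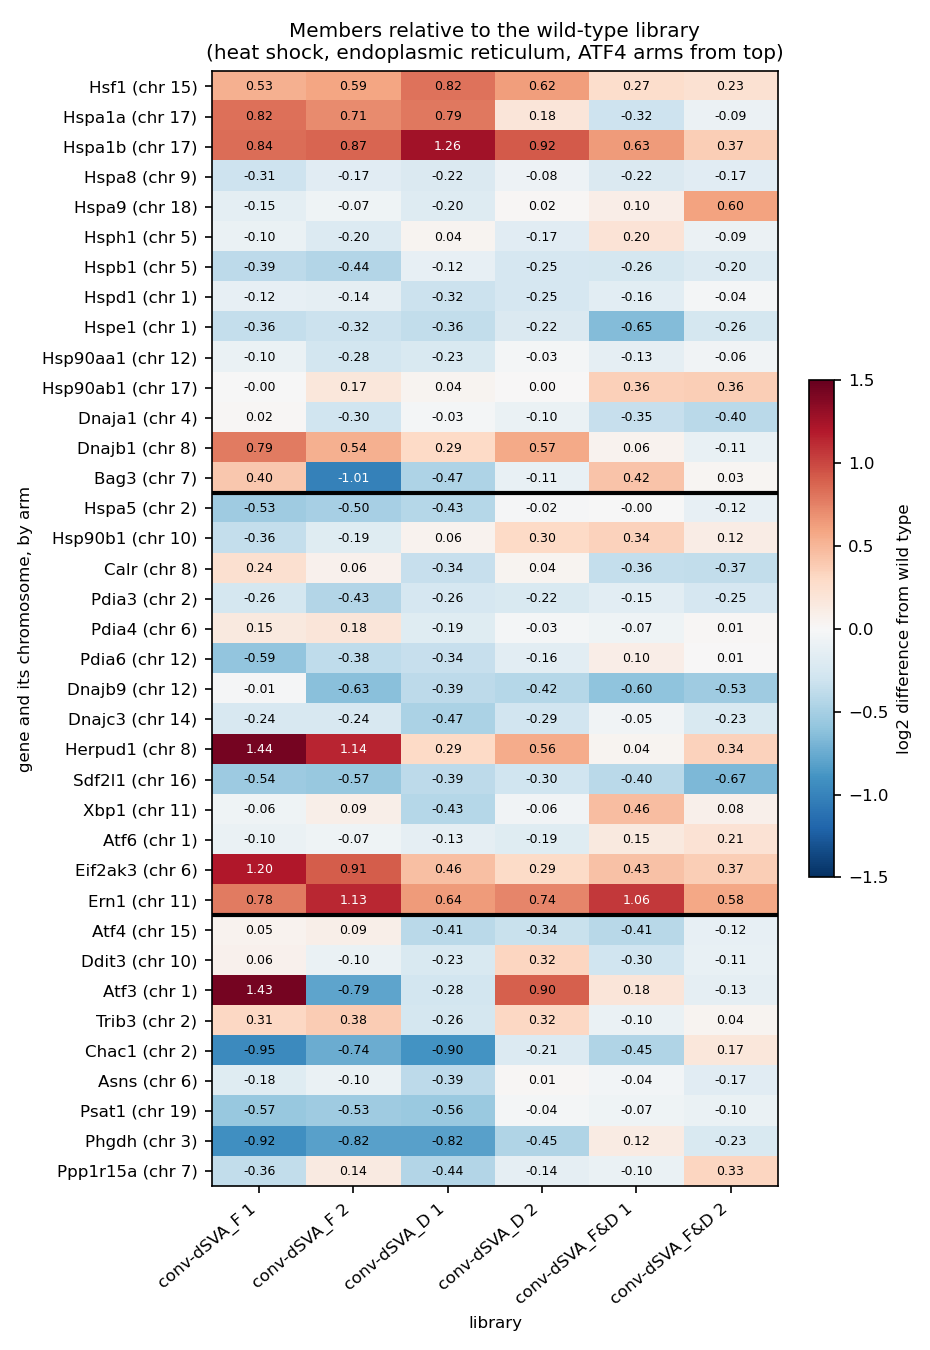
Log2 difference of each of the 37 genes (rows, by arm) from the single wild-type library in each of the 6 converted libraries (columns), with red for higher and blue for lower. In the endoplasmic reticulum arm Herpud1, Eif2ak3 and Ern1 are above the wild type in all 6 converted libraries. Herpud1 and Eif2ak3 are highest in those of conv-dSVA_F. The ATF4 arm is blue from top to bottom in conv-dSVA_D replicate 1.

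A set of 3 libraries stood apart by the level of whole chromosomes, measured against the wild-type library as a median log2 difference over each chromosome's genes with a mean of at least 50. Chromosome 8 was raised by 0.63 and 0.44 for conv-dSVA_F replicates 1 and 2, and chromosome 6 by 0.41 and 0.36. Chromosome 18 was raised by 0.51 for conv-dSVA_F&D replicate 2, against -0.10 to -0.03 in the other converted libraries. The conv-dSVA_D libraries had 0.07 and 0.24 on chromosome 8. Of the 37 genes, 3 lie on chromosome 8 (Dnajb1, Calr, Herpud1), 3 on chromosome 6 (Pdia4, Eif2ak3, Asns) and 1 on chromosome 18 (Hspa9).

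Lines conv-dSVA_F&D and conv-dSVA_F differ in the allele marked dSVA2. Of the 4 comparisons made, theirs was the only one with genes of this group past the threshold, an adjusted p of 0.05 in limma over 15240 genes. Herpud1 and Dnajb1 were lower in conv-dSVA_F&D relative to conv-dSVA_F, and Pdia6 and Phgdh were higher. These are 4 of 37 genes, or 10.8%, where 3.92% of all genes tested passed. The median log2 difference was 0.03 over the 37 genes and -0.01 over all genes, with 21 positive and 16 negative values.

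Herpud1 encodes a membrane protein of the endoplasmic reticulum that takes part in degrading misfolded proteins. It had 240.1 normalized counts in the wild type, 652 and 530.1 for conv-dSVA_F, 295 and 354 for conv-dSVA_D, and 246 and 305 for conv-dSVA_F&D. Both conv-dSVA_F libraries lay above the 5 others, and conv-dSVA_F&D overlapped conv-dSVA_D. The mean was 591 ± 86.0 (SD, n = 2) in conv-dSVA_F and 276 ± 41.6 (SD, n = 2) in conv-dSVA_F&D, a log2 difference of -1.10 ± 0.21 (SE, limma adjusted p = 0.0254). The call was lost without conv-dSVA_F replicate 1 (-0.95, limma adjusted p = 0.235) or replicate 2 (-1.25, 0.0689), and without conv-dSVA_D replicate 1 (0.0539) or 2 (0.0551). Herpud1 lies on chromosome 8. With chromosome medians set equal between libraries its difference was -0.56 (limma adjusted p = 0.188).

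Dnajb1 encodes HSP40, the J-domain partner that hands clients to HSP70 and that HSF1 is known to raise. It had 1766 normalized counts in the wild type, 3043 and 2559 for conv-dSVA_F, 2165 and 2629 for conv-dSVA_D, and 1835 and 1641 for conv-dSVA_F&D. The conv-dSVA_F&D libraries were close to the wild type, and those of conv-dSVA_F and conv-dSVA_D overlapped. The log2 difference between conv-dSVA_F&D and conv-dSVA_F was -0.69 ± 0.14 (SE, limma adjusted p = 0.0316). Dnajb1 is on chromosome 8 too, and with chromosome medians set equal the difference was -0.15 (limma adjusted p = 0.536). The call was kept without the wild type and without conv-dSVA_F&D replicate 1. It was lost without conv-dSVA_F replicate 1 (-0.56, limma adjusted p = 0.258) or 2 (-0.81, 0.065), conv-dSVA_D replicate 1 (0.0557) or 2 (0.0559), or conv-dSVA_F&D replicate 2 (-0.60, 0.0879).

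Pdia6, a protein disulfide isomerase of the endoplasmic reticulum on chromosome 12, had 7762 normalized counts in the wild type, 5156 and 5967 for conv-dSVA_F, 6113 and 6937 for conv-dSVA_D, and 8310 and 7793 for conv-dSVA_F&D. Levels in conv-dSVA_F were the lowest of all 7 libraries, and both conv-dSVA_F&D libraries were above the wild type. The log2 difference was 0.54 ± 0.12 (SE, limma adjusted p = 0.0411). It was lost on leaving out any converted library, with limma adjusted p of 0.297 and 0.0749 without conv-dSVA_F replicates 1 and 2, 0.0738 and 0.0739 without those of conv-dSVA_D, and 0.0741 and 0.066 without those of conv-dSVA_F&D. With chromosome medians set equal the value was 0.50 (limma adjusted p = 0.078).

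Phgdh, the first enzyme of serine synthesis and a target of ATF4, lies on chromosome 3. Its levels were 2859.7 normalized counts in the wild type, 1515 and 1621 for conv-dSVA_F, 1622 and 2099 for conv-dSVA_D, and 3117 and 2446 for conv-dSVA_F&D. Here conv-dSVA_F was low, as was conv-dSVA_D replicate 1, and conv-dSVA_F&D lay on either side of the wild type. The log2 difference between conv-dSVA_F&D and conv-dSVA_F was 0.82 ± 0.16 (SE, limma adjusted p = 0.0269), and 0.83 (0.0339) with chromosome medians set equal. The call was lost without conv-dSVA_F replicate 1 (0.77, limma adjusted p = 0.218) or 2 (0.86, 0.0914) and without conv-dSVA_F&D replicate 1 (0.64, 0.0581).

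**Figure D2:**
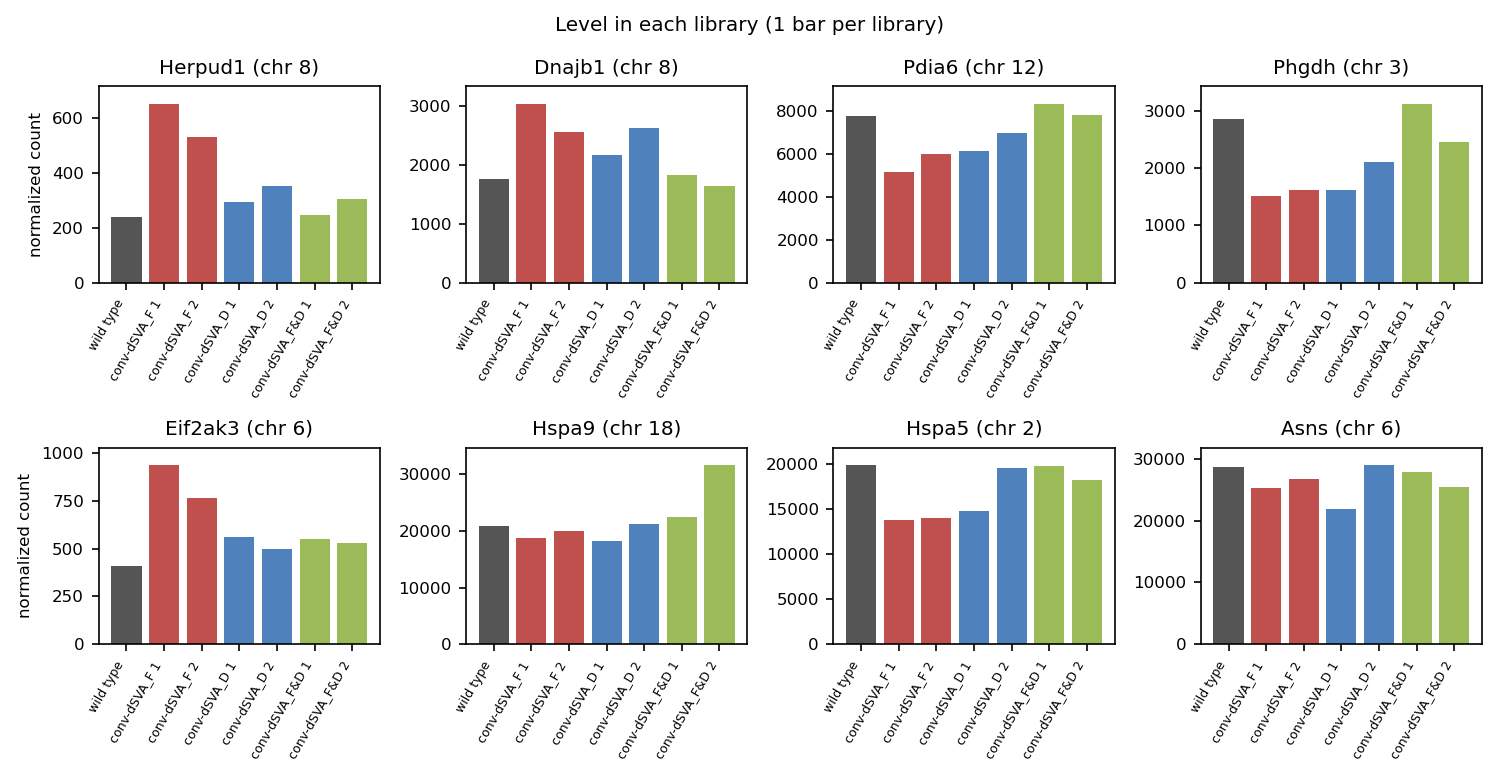
Normalized counts of 8 genes (panels) in each of the 7 libraries, 1 bar per library and no error bars, with the vertical axis from 0. Herpud1, Dnajb1 and Eif2ak3 are highest in a conv-dSVA_F library, Pdia6, Phgdh and Hspa5 are lowest there, and Hspa9 stands out in conv-dSVA_F&D replicate 2 alone.

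Several genes of the same comparison missed the threshold. The sensor kinase PERK, encoded by Eif2ak3 on chromosome 6, had 406 normalized counts in the wild type, 934 and 765 for conv-dSVA_F, 558 and 497 for conv-dSVA_D, and 549 and 527 for conv-dSVA_F&D. Both conv-dSVA_F libraries were above all others, and every converted library was above the wild type. The log2 difference was -0.65 ± 0.17 (SE, limma adjusted p = 0.0615). Hsp90b1, the HSP90 of the endoplasmic reticulum (GRP94), had 13793 in the wild type, 10772 and 12122 for conv-dSVA_F, 14353 and 16993 for conv-dSVA_D, and 17461 and 14956 for conv-dSVA_F&D (0.50 ± 0.13, 0.0689). Calr, the lectin chaperone calreticulin on chromosome 8, had 19396, then 22992 and 20213, then 15328 and 20011, then 15158 and 14997 in the same order (-0.52 ± 0.14, 0.0763).

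The central chaperone BiP, encoded by Hspa5 on chromosome 2, had 19820.2 normalized counts in the wild type, 13747 and 14028 for conv-dSVA_F, 14732 and 19569 for conv-dSVA_D, and 19785 and 18229 for conv-dSVA_F&D. It was thus low in 3 libraries, both of conv-dSVA_F and conv-dSVA_D replicate 1, and within a narrow range in the others. The log2 difference between conv-dSVA_F&D and conv-dSVA_F was 0.45 ± 0.14 (SE, limma adjusted p = 0.111). Psat1, which acts after Phgdh in serine synthesis, had a like order, with 9698 in the wild type, 6513 and 6711, then 6599.5 and 9467, then 9249 and 9035 (0.47 ± 0.15, 0.127). Count tests on the recovered reads gave 4 of 37 genes in edgeR, where 3.63% of all genes passed, and 10 of 37 in DESeq2, where 7.95% did. The 10 were the 4 above with Eif2ak3, Hsp90b1, Calr, Hspa5, Psat1 and Hspa9.

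**Figure D3:**
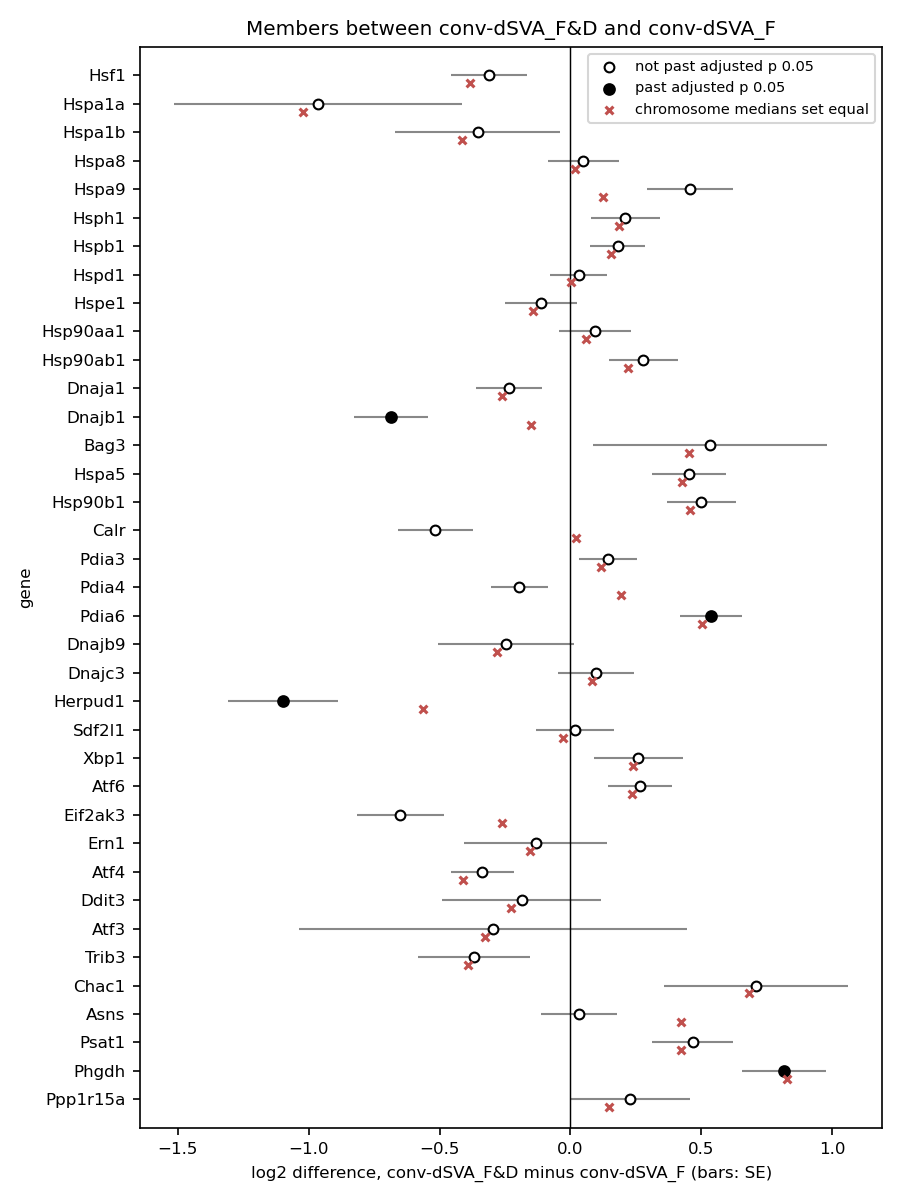
Log2 difference between conv-dSVA_F&D and conv-dSVA_F for each of the 37 genes, with SE bars, filled where the limma adjusted p was under 0.05, and crosses for the value with chromosome medians set equal. Crosses move toward or past 0 for Herpud1, Dnajb1, Calr, Eif2ak3, Pdia4 and Hspa9, away from 0 for Asns, and little for the rest.

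In the endoplasmic reticulum arm, genes differed in direction within conv-dSVA_F. Both conv-dSVA_F libraries lay above the 5 others for Calr, Pdia4, Herpud1, Eif2ak3 and Atf4, which is 5 of 37 (13.5%) where 9.51% of all genes tested did so. They lay below the 5 others for Hspb1, Hspa5, Hsp90b1, Pdia3, Pdia6 and Phgdh, which is 6 of 37 (16.2%) where 7.42% of all genes did so. This count was chosen after the values were seen and is a description with no test. Of the 5 above, all but Atf4 lie on chromosome 6 or 8, and of the 6 below none does. Within the arm, the lumenal chaperones Hspa5 and Hsp90b1 and the isomerases Pdia3 and Pdia6 were therefore at their lowest in the libraries where Herpud1 and the sensor Eif2ak3 were at their highest. Of the other 2 sensors, Atf6 had 1219 in the wild type and 1133 and 1164 for conv-dSVA_F. Ern1 had 106 in the wild type, 183 and 233 for conv-dSVA_F, 165 and 177 for conv-dSVA_D, and 222 and 159 for conv-dSVA_F&D. Like Eif2ak3 it was above the wild type in every converted library, but its conv-dSVA_F levels overlapped those of conv-dSVA_F&D. Xbp1, the factor whose mRNA IRE1 splices, had 1491 and then 1431 and 1581, and the counts do not separate its spliced form.

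The 7 genes on a raised chromosome lay above, below or close to the median of that chromosome. Relative to the wild type, Herpud1 was 1.44 and 1.14 higher on the log2 scale in conv-dSVA_F replicates 1 and 2, or 0.81 and 0.70 above the median of chromosome 8. Dnajb1, at 0.79 and 0.54, was 0.16 and 0.10 above it, while Calr, at 0.24 and 0.06, was below it by values of -0.39 and -0.38. On chromosome 6, Eif2ak3 was 1.20 and 0.91 higher than the wild type, 0.79 and 0.55 above the chromosome. Pdia4, an isomerase, was at 0.15 and 0.18, with -0.26 and -0.18 to the chromosome, and Asns at -0.18 and -0.10, with -0.59 and -0.46. The same holds against the nearest genes: the 40 genes around Herpud1 had a median of 0.72 and 0.51, those around Eif2ak3 0.36 and 0.30, and those around Asns 0.42 and 0.25. The comparison with neighbours was chosen after seeing the data. Such offsets were not limited to conv-dSVA_F. In conv-dSVA_F&D replicates 1 and 2, neither chromosome 6 nor 8 was raised. Eif2ak3 was there 0.43 and 0.39 above its chromosome, and Calr was at -0.36 to its own in both. Herpud1 was at 0.03 and 0.35, Dnajb1 at 0.05 and -0.10, Pdia4 at -0.07 and 0.025, and Asns at -0.05 and -0.16. In conv-dSVA_D replicates 1 and 2, Dnajb1 was at 0.225 and 0.33 to its chromosome, Herpud1 at 0.23 and 0.32, and Calr at -0.41 and -0.20. There Eif2ak3 was at 0.30 and 0.16, Pdia4 at -0.34 and -0.16, and Asns at -0.55 and -0.12, with a limit on chromosome 6 given below. All these offsets rest on the single wild-type library.

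Hspa9, which encodes the mitochondrial HSP70 mortalin on chromosome 18, had 20852 normalized counts in the wild type, 18841 and 19922 for conv-dSVA_F, 18194 and 21168 for conv-dSVA_D, and 22402 and 31589.8 for conv-dSVA_F&D. Replicate 2 of conv-dSVA_F&D was far above the other 6 libraries. Its log2 difference from the wild type was 0.60, which is 0.09 above the chromosome's median of 0.51. The 40 nearest genes had a median of 0.53 in that library and -0.16 to -0.01 in the other converted libraries. Against conv-dSVA_D the difference of conv-dSVA_F&D was 0.44 ± 0.16 (SE, limma adjusted p = 0.171), and 0.69 (0.0334) without its replicate 1, when only the raised library remained. With chromosome medians set equal it was 0.12 (0.621).

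**Figure D4:**
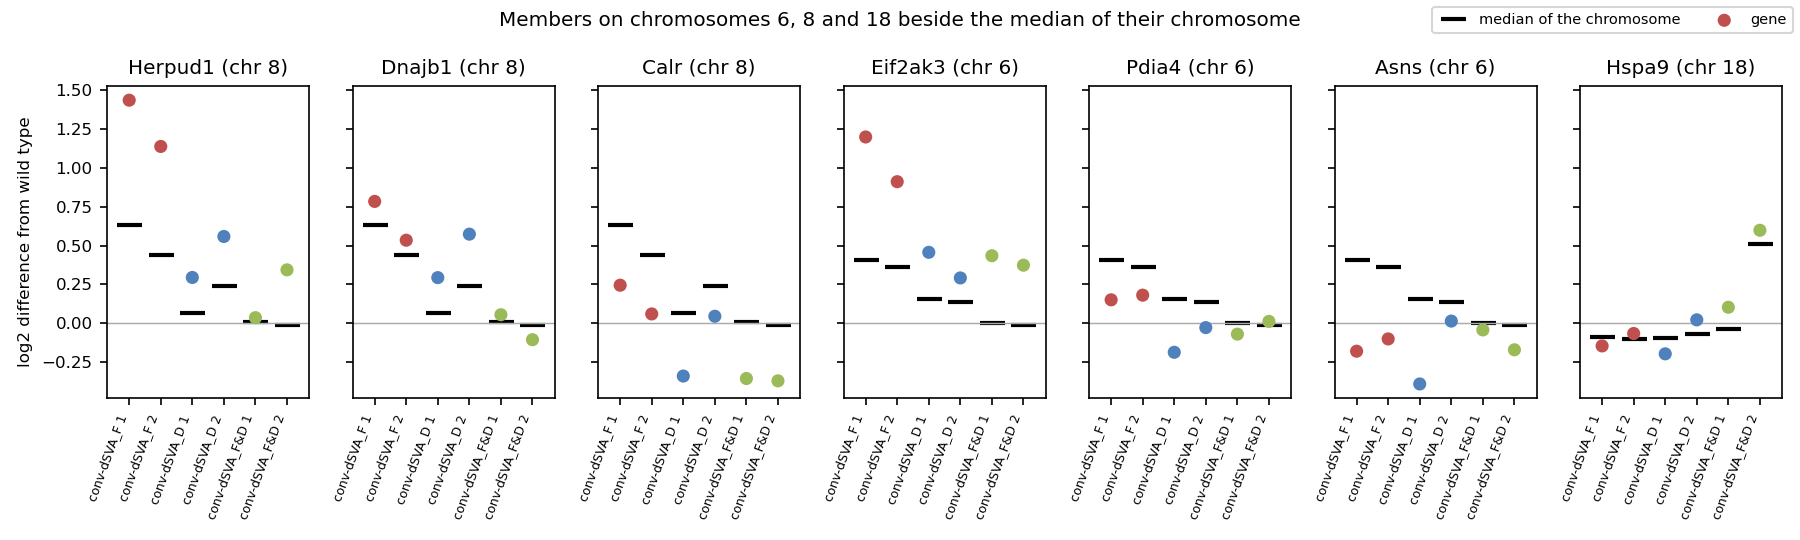
Log2 difference from the wild-type library of the 7 genes on chromosomes 6, 8 and 18 (points, colored by line) in the 6 converted libraries, with the median of the gene's chromosome as a black bar. In both conv-dSVA_F libraries Herpud1 and Eif2ak3 lie above the bar, Calr, Pdia4 and Asns below it, and Dnajb1 and Hspa9 close to it. Dnajb1 lies further above its bar in the conv-dSVA_D libraries.

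Medians of chromosome 6 described the conv-dSVA_D libraries poorly near these genes. The chromosome's median was 0.155 and 0.135 in replicates 1 and 2, while the 40 genes nearest to Pdia4 had -0.15 in both, those nearest to Eif2ak3 -0.18 and -0.25, and those nearest to Asns -0.37 and -0.18. Values of these 3 genes with chromosome medians set equal are limited in that way wherever conv-dSVA_D is compared.

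The 3 libraries with a raised chromosome were then set beside the 4 others. That split comes from measured chromosome levels, so it is described and not tested. Only Pdia4 lay above throughout, with 5558 to 6248 normalized counts in the 3 libraries against 4841 to 5512 in the 4 others. Only Sdf2l1, a cofactor of BiP on chromosome 16, lay below throughout, with 677 to 743 against 819 to 1081. These are 1 of 37 genes (2.7%) in each direction, where 3.44% of all genes tested lay above and 3.2% below. The other 35 genes overlapped, all 14 of the heat shock arm and all 9 of the ATF4 arm among them. With fewer libraries, groups overlap less readily for any gene. Without conv-dSVA_F&D replicate 2 the count was 12 of 37, where 20.9% of all genes did not overlap. It was 6 without conv-dSVA_D replicate 1 (9.93% of all genes), 5 without its replicate 2 (8.66%) and 4 without the wild type (12.3%).

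In the heat shock arm, Hspa1a and Hspa1b had low counts, and Bag3 varied between replicates. Hspa1a and Hspa1b, the inducible HSP70 pair, have transcripts that are 99.3% identical over 2197 aligned bases, so their separate counts are uncertain. Their sum was 82.95 normalized counts in the wild type, 149.8 and 149.3 for conv-dSVA_F, 187 and 142 for conv-dSVA_D, and 114 and 100.3 for conv-dSVA_F&D. All 6 converted libraries were above the wild type, with conv-dSVA_F&D nearest to it. Hsf1, the master regulator, had 544 in the wild type, 785 and 819.5 for conv-dSVA_F, 958 and 838 for conv-dSVA_D, and 654 and 639 for conv-dSVA_F&D, again with every converted library above the wild type. Bag3, the HSP70 cofactor of selective autophagy, had 153 and 56.9 for conv-dSVA_F replicates 1 and 2, which spans nearly its whole range of 56.9 to 156.

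Abundant chaperones differed in how far they ranged over the 7 libraries. Hspa9 ranged 1.74-fold, Hsp90b1 1.62-fold, Calr 1.53-fold and Hspa5 1.44-fold. Hspa8 ranged from 69196 to 85968 normalized counts, 1.24-fold, and Hsp90aa1 from 55389 to 67054, 1.21-fold. Hsp90ab1 had 64483 in the wild type, 64383 and 72399.9 for conv-dSVA_F, 66117 and 64538 for conv-dSVA_D, and 82585 and 82962 for conv-dSVA_F&D. Both conv-dSVA_F&D libraries were above all others, with a log2 difference of 0.34 ± 0.13 (SE) from conv-dSVA_D that did not pass (limma adjusted p = 0.186). Hspd1 ranged 1.25-fold and Hspe1 1.57-fold, each highest in the wild type, and Hspb1, the small heat shock protein HSP27, ranged 1.35-fold. Hsph1 (HSP110) ranged 1.33-fold and Dnaja1, another HSP40, 1.34-fold. Hspd1 with Hspe1, and Dnaja1 with Smu1, overlap on opposite strands. The kit marks strand, but whether counting used it is a setting not given in the sources used here. Reads of such partners cannot be told apart.

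In the ATF4 arm, Atf4 itself had 6106 normalized counts in the wild type, 6329 and 6489 for conv-dSVA_F, 4595 and 4831 for conv-dSVA_D, and 4584 and 5617 for conv-dSVA_F&D. Both conv-dSVA_F libraries were above the rest, and those of conv-dSVA_D below the wild type. The log2 difference between conv-dSVA_F and conv-dSVA_D was 0.44 ± 0.12 (SE, limma adjusted p = 0.11). The RNA of Atf4 is regulated mostly in translation, which these counts do not measure. Of the other stress genes of the arm, Ddit3 (CHOP) ranged from 106 to 164 normalized counts and Trib3 from 327 to 509.8. Chac1, a glutathione-degrading enzyme, ranged from 82.5 to 181. Atf3 ranged from 17.3 to 84.2 and took both ends of that range in the 2 replicates of conv-dSVA_F. Asns ranged 1.32-fold, from 21843 to 28921, and both ends were in conv-dSVA_D. Ppp1r15a, the GADD34 subunit that reverses the block on eIF2, ranged from 368 to 627, and its opposite-strand neighbour Tulp2 had 29.7% of its mean.

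Replicates of conv-dSVA_D differed in this arm. All 9 ATF4 arm genes were lower in replicate 1 than in replicate 2, with a median log2 difference of -0.52, while 50.6% of all genes tested were lower there. All 9 were below the wild type in replicate 1 as well, with a median of -0.41, against 5 of 9 and -0.035 in replicate 2. In the endoplasmic reticulum arm 11 of 14 genes were lower in replicate 1 (median -0.17), and in the heat shock arm 7 of 14 (median -0.015). The 9 genes included Asns (21843 and 28921), Psat1 (6599.5 and 9467), Trib3 (327 and 489) and Chac1 (85.5 and 139). For these the replicates spanned much of the range over all libraries. They spanned less of it for Atf4 (4595 and 4831, within 4584 to 6489) and Phgdh (1622 and 2099, within 1515 to 3117). The cause was not tested. The arm took 0.166% of normalized counts in replicate 1 and 0.215% in replicate 2, its lowest and highest shares over the 7 libraries. Asns alone made up 21843 of the arm's 35576 normalized counts in replicate 1.

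Lines conv-dSVA_D and conv-dSVA_F&D differ in the allele marked SVAdel. Between them none of the 37 genes passed in limma, where 3.16% of all genes did. At an unadjusted p under 0.05 there were 9 of 37, where 19.8% of all genes tested had one. By edgeR 0 passed (3.04% of all genes) and by DESeq2 1 (6.83% of all genes), Phgdh (log2 difference 0.58, DESeq2 adjusted p = 0.0192; limma 0.58 ± 0.16, adjusted p = 0.0829). Among the 9 were Xbp1 (0.51 ± 0.17, limma adjusted p = 0.133), Atf6 (0.34 ± 0.12, 0.163), Hsf1 (-0.47 ± 0.14, 0.111) and Dnajb1 (-0.46 ± 0.14, 0.112). Xbp1 had 1106 and 1434 normalized counts in conv-dSVA_D and 2056 and 1577 for conv-dSVA_F&D, and Atf6 had 1112 and 1071 against 1349.6 and 1412. Neither gene passed. The medians were 0.05 over the 37 genes and -0.003 over all genes.

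Lines conv-dSVA_F and conv-dSVA_D each carry 1 of the alleles. Between them none of the 37 passed in limma either, where 1.35% of all genes did, and 5 had an unadjusted p under 0.05, where 16.7% of all genes had one. By edgeR 0 passed (1.48% of all genes). By DESeq2 4 passed (Atf4, Eif2ak3, Herpud1 and Hsp90b1), where 4.78% of all genes did. Herpud1 had a log2 difference of 0.86 ± 0.21 (SE, limma adjusted p = 0.0816) and Eif2ak3 of 0.68 ± 0.17 (0.081). Hsp90b1 had -0.45 ± 0.13 (0.132) and Pdia4 0.27 ± 0.11 (0.244). Atf4 and Herpud1 passed without either conv-dSVA_F&D library, with limma adjusted p of 0.0468 and 0.0463 for Atf4 and 0.0468 and 0.048 for Herpud1 without replicates 1 and 2. This comparison shares its conv-dSVA_F libraries with the one above in which 4 genes passed, so the values are not independent.

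Converted lines were compared with the wild type, of which there was 1 library, assumed to vary like the others. None of the 37 genes passed in limma, edgeR or DESeq2, where 1.15%, 2% and 5.62% of all genes did. In limma 10 had an unadjusted p under 0.05, where 18.7% of all genes had one. Among the 10, Ern1 had a log2 difference of 0.82 ± 0.30 (SE, limma adjusted p = 0.173), Hspa1b 0.82 ± 0.34 (0.233), Eif2ak3 0.61 ± 0.18 (0.112), Hsf1 0.51 ± 0.16 (0.124), Sdf2l1 -0.48 ± 0.16 (0.15) and Hspe1 -0.36 ± 0.15 (0.23). All 6 converted libraries lay on 1 side of the wild type for these 6 genes, and for Hspb1 and Herpud1 of the 10. For Phgdh (-0.52 ± 0.17, limma adjusted p = 0.149) and Dnajb1 (0.36 ± 0.15, 0.251), also of the 10, they lay on both sides. These positions rest on the level of the single wild-type library. In a count chosen after the values were seen, the wild-type library was the lowest of the 7 for 5 of 37 genes (13.5%, against 18.8% of all genes): Hsf1, Hspa1b, Herpud1, Eif2ak3 and Ern1. It was the highest for 11 of 37 (29.7%, against 19% of all genes): Hspa8, Hspb1, Hspd1, Hspe1, Hsp90aa1, Hspa5, Pdia3, Dnajb9, Dnajc3, Sdf2l1 and Psat1. The medians were -0.12 over the 37 genes and -0.01 over all genes, with 14 positive and 23 negative values.

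Wider lists of the same pathways were described by the same fit, and the shares of all genes given above for each comparison serve for them too. Each call named from these lists was lost in at least 2 of the fits that left out 1 library. Of 39 other cytosolic chaperones, 3 passed between conv-dSVA_F&D and conv-dSVA_F: Dnajb6, a J-domain protein on chromosome 5, was higher (0.58 ± 0.11), and Cct7, a chaperonin subunit on chromosome 6, and Hsbp1, a negative regulator of HSF1 on chromosome 8, were lower (-0.54 ± 0.11 and -0.68 ± 0.15). The list's median was 0.035 against -0.01 for all genes. Dnajb6 was higher than in conv-dSVA_D too (0.57 ± 0.11), the 1 gene of 39 that passed there, and lower in the converted lines than in the wild type (-0.65 ± 0.12), while 0 of 39 passed between conv-dSVA_F and conv-dSVA_D by limma, with 8 at an unadjusted p under 0.05. Dnajb6 had 3662 normalized counts in the wild type and 1988 and 2092 for conv-dSVA_F, 2032 and 2074 for conv-dSVA_D, and 3016 and 3067.5 for conv-dSVA_F&D. Of 12 mitochondrial chaperones and proteases, Spg7, the paraplegin protease on chromosome 8, passed between conv-dSVA_F&D and conv-dSVA_F (-0.82 ± 0.15), and none in the other comparisons, with 3, 4 and 3 at an unadjusted p under 0.05.

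Of 42 other endoplasmic reticulum genes tested, Sec61a1, the channel of the translocon on chromosome 6, was lower in conv-dSVA_F&D relative to conv-dSVA_F (-0.61 ± 0.11) and higher in conv-dSVA_F than in conv-dSVA_D (0.58 ± 0.11). Dnajc10, the reductase ERdj5, was lower in conv-dSVA_F&D relative to conv-dSVA_D (-0.78 ± 0.14), with 3159 and 3167 normalized counts in conv-dSVA_D and 2086 and 1619 for conv-dSVA_F&D. No other gene of this list passed in any comparison, and none passed against the wild type, with 8 at an unadjusted p under 0.05.

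Of 46 other ATF4 targets and amino acid genes tested, 8 passed between conv-dSVA_F&D and conv-dSVA_F (17.4%, where 3.92% of all genes did), 6 higher and 2 lower, with a list median of 0.22 against -0.01 for all genes. Of the 7 fits that left out 1 library, Mthfd2 passed in 5, Slc7a5 and Stc2 in 3, Ddit4, Shmt2, Pycr1 and Cth in 2, and Psph in 1. Those with the smallest p were Slc7a5, the large neutral amino acid transporter (-0.60 ± 0.10), Stc2, the secreted glycoprotein stanniocalcin 2 (2.40 ± 0.43), Mthfd2 of mitochondrial folate metabolism (-0.68 ± 0.12) and Ddit4, an inhibitor of mTORC1 (0.66 ± 0.13). Stc2 had 534 normalized counts in the wild type, 55.3 and 161 for conv-dSVA_F, 166 and 247 for conv-dSVA_D, and 428 and 593 for conv-dSVA_F&D. The other 4, named after their values were seen, were the serine and proline enzymes Shmt2 (0.67 ± 0.15), Pycr1 (1.23 ± 0.27) and Psph (0.64 ± 0.15) and the cystathionine gamma-lyase Cth (0.44 ± 0.10). Psph completes the serine pathway begun by Phgdh and Psat1, and had 1721 normalized counts in the wild type, 741 and 842 for conv-dSVA_F, 907 and 1147 for conv-dSVA_D, and 1269.9 and 1202 for conv-dSVA_F&D. Between conv-dSVA_F and conv-dSVA_D, 4 of 46 passed: Mthfd2 was higher (0.95 ± 0.12), and Ddit4 (-0.92 ± 0.13), the cationic transporter Slc7a3 (-0.94 ± 0.17) and the cysteinyl-tRNA synthetase Cars (-0.53 ± 0.10) were lower. None passed between conv-dSVA_F&D and conv-dSVA_D, with 12 at an unadjusted p under 0.05, and against the wild type 1 did, Slc7a5 (0.82 ± 0.11).

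Chromosome position was set beside the calls between conv-dSVA_F&D and conv-dSVA_F. Across the wider lists, each gene that was lower in conv-dSVA_F&D relative to conv-dSVA_F (Cct7, Hsbp1, Spg7, Sec61a1, Slc7a5 and Mthfd2) lies on chromosome 6 or 8, and so do Herpud1 and Dnajb1 among the 37. With chromosome medians set equal none of these passed, with values between -0.29 for Mthfd2 and -0.06 for Slc7a5 in the wider lists. The genes that were higher lie on other chromosomes, and Dnajb6 (0.55), Stc2 (2.38) and Ddit4 (0.61) still passed in that setting, as did Phgdh. Shmt2 (0.63, limma adjusted p = 0.0689), Pycr1 (1.205, 0.0666), Cth (0.46, 0.0666) and Psph (0.62, 0.0796) did not, with values close to those before, nor did Pdia6. Of 10 immediate early genes tested, a group to which Atf3 belongs, 2 passed in this comparison: Junb on chromosome 8 was lower (-1.72 ± 0.30) and Ier3 higher (1.11 ± 0.22), and with chromosome medians set equal neither passed (-1.18, limma adjusted p = 0.106, and 1.05, 0.0515). Junb was lower than in conv-dSVA_D too (-1.51 ± 0.30), where Ccn1 was higher (0.90 ± 0.19), and Ccn1 was higher in conv-dSVA_F than in conv-dSVA_D (1.20 ± 0.19). None of the 10 passed against the wild type, with 3 at an unadjusted p under 0.05. With chromosome medians set equal, calls named in the other comparisons were lost for Sec61a1 between conv-dSVA_F and conv-dSVA_D (0.34, limma adjusted p = 0.17), Slc7a5 against the wild type (0.59, 0.0607) and Junb between conv-dSVA_F&D and conv-dSVA_D (-1.35, 0.0537). The rest were kept, among them Mthfd2 on chromosome 6 between conv-dSVA_F and conv-dSVA_D (0.71, 0.0311). The limit given above for the median of chromosome 6 in conv-dSVA_D may hold for Mthfd2 and Sec61a1 too. The 40 genes around Eif2ak3, on the same chromosome, had 0.36 and 0.30 for conv-dSVA_F, and -0.18 and -0.25 for conv-dSVA_D. Genes around Mthfd2 and Sec61a1 themselves were not examined, so dosage near them was not tested.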

How the data were processed

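The deposited signal was a table of gene counts that the authors had normalized by 1 size factor per library, as the values show. Tools named in the submitters' processing notes are STAR 2.7.3, featureCounts 1.6.3, DESeq2, Trimmomatic 0.36, deepTools 3.1.0 and Picard 2.18.20, with build mm10. The role of each, the strand setting and the annotation are details not given in the sources used here. Counts of whole reads were recovered from the step between values, with 100% of positive values within 0.1 read of a whole number in each of the 7 libraries. Positions came from GENCODE M21 (GRCm38), which matched 50716 of 54456 gene names (93.1%).

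Genes were tested with limma 3.58.1 (R 4.3.3), its variance trend on, applied to log2(normalized count + 1), over 15240 genes with a mean of at least 10. It had 1 mean per group (the wild type and 3 converted lines), 3 residual degrees of freedom and prior degrees of freedom of 6.80. P-values were two-sided and adjusted by Benjamini-Hochberg across all genes tested, with 0.05 as threshold. Differences of weakly expressed genes are understated by the pseudocount of 1. The wild type, with 1 library, was given the spread of the converted groups. Pearson r between replicates, over log2 levels of the genes tested, was 0.974 in conv-dSVA_F, 0.979 in conv-dSVA_D and 0.959 in conv-dSVA_F&D. The fit was tested on simulated data. The table had no per-sample column without a sample.

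Alternatives were edgeR 4.0.16 and DESeq2 1.42.0 on the recovered reads, TMM scaling, a pseudocount of 5, no filter or a mean of at least 50, no variance trend, only the groups compared, chromosome medians set equal, and leaving out each library. A value was called reversed where its sign changed and it was past the threshold or moved by more than 1 SE. The members, lists and tests were chosen with earlier results of these data known. All 37 members are named, with up to 4 further genes with the smallest p per wider list and comparison, and Taf1. Levels are compared between genes only per kilobase of exon, with exon length from GENCODE. Motif searches used RefSeq promoters of GRCm38.p6.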

Additional observations from a re-analysis of the deposited data

How the results depend on the processing

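The count of the 37 genes past the threshold between conv-dSVA_F&D and conv-dSVA_F was 4. It was 10 with DESeq2, 0 with no filter on low values, 0 with no variance trend, 1 (Phgdh) with only the groups compared and 1 (Phgdh) with chromosome medians set equal. It ranged from 0 to 4 on leaving out a library, with 0 without conv-dSVA_F replicate 1 or replicate 2. It was 4, with the same genes, with edgeR, TMM scaling, a pseudocount of 5 and a mean of at least 50. Over all genes this comparison had 597 calls, 1211 with DESeq2, 200 with only the groups compared, 194 with chromosome medians set equal, and 0 with no filter or no variance trend. Between conv-dSVA_F&D and conv-dSVA_D the count of 0 became 1 with DESeq2, and 0 to 1 on leaving out a library (Hspa9, without conv-dSVA_F&D replicate 1). Between conv-dSVA_F and conv-dSVA_D it became 4 with DESeq2, 3 with only the groups compared (Atf4, Eif2ak3 and Herpud1), and 0 to 2 on leaving out a library. Against the wild type it was 0 under every alternative run. The count of genes not overlapping between the libraries with a raised chromosome and the others was 2, and 2 to 12 on leaving out a library. The cause of these shifts was not tested, except that a library left out leaves fewer samples.

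With chromosome medians set equal, the log2 difference between conv-dSVA_F&D and conv-dSVA_F changed sign to 0.02 for Calr and 0.19 for Pdia4. Between conv-dSVA_F and conv-dSVA_D it changed to -0.15 for Dnajb1, -0.079 for Calr and -0.19 for Asns, and against the wild type to -0.165 for Pdia4. On leaving out a library, signs changed between conv-dSVA_F&D and conv-dSVA_D, with values of -0.023 to 0.27 for Hsph1, -0.355 to 0.033 for Hspe1, -0.043 to 0.37 for Hspa5, -0.039 to 0.25 for Atf4, -0.34 to 0.24 for Trib3, -0.12 to 0.28 for Asns and -0.050 to 0.47 for Psat1. Between conv-dSVA_F&D and conv-dSVA_F the values were -0.31 to 0.082 for Hspe1, -0.17 to 1.24 for Bag3, -0.55 to 0.063 for Dnajb9, -1.41 to 0.82 for Atf3 and -0.023 to 0.48 for Ppp1r15a. Between conv-dSVA_F and conv-dSVA_D the values were -0.23 to 0.084 for Dnaja1, -0.72 to 0.69 for Bag3, -0.22 to 0.39 for Dnajb9, -1.10 to 1.12 for Atf3, -0.15 to 0.25 for Asns, -0.52 to 0.003 for Psat1 and -0.076 to 0.43 for Ppp1r15a. Of 2323 values of single genes under an alternative, 25 reversed, 32 lost and 20 gained a call, and 48 changed sign by at most 1 SE with no call on either side. The other 2198 kept direction and side.

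No paired analysis was possible because the replicate numbers follow accession order only and pair no samples. Among genes with few reads, Hspa1a, Atf3 and Bag3 had SEs of 0.55, 0.74 and 0.45 on the log2 scale between conv-dSVA_F&D and conv-dSVA_F, and Hspa1b, Ddit3 and Ern1 had 0.31, 0.30 and 0.27. The part of depth in this was not tested.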
